A study of Mus musculus with 6 samples.

Results

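CpG methylation was compared between male germ cells of heterozygous Tex15 pups and of their wild-type counterparts, over 1 kb tiles of the autosomes. The unit of comparison was a tile of the mm9 mouse genome that held at least 3 CpGs and had at least 10 calls in every one of the 4 samples used, and 563253 tiles met this rule, out of 2046691 tiles that hold any CpG of the deposited table (27.5%). The samples were 2 of genotype Tex15WT (Tex15+/+, pups 8 and 9) and 2 of genotype Tex15HT (Tex15+/-, pups 7 and 18), out of 6 samples in the series, and the Tex15KO samples were not used. All pups were males at postnatal day 2.5, on a mixed strain background, from matings of Tex15+/- with Tex15+/- mice, and all germ cells were sorted by the green fluorescence of Oct4-GFP, so this reporter is shared by both groups. Each library came from 1 pup, so the replicates are separate animals. Whole-genome bisulfite sequencing reads an unmethylated cytosine as T and a methylated one as C, and a methylation level here is the share of C calls among all calls, in percent.

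Tex15 encodes a large protein of germ cells that is known to associate with the PIWI protein MILI and to be needed for the piRNA-directed methylation of retrotransposons in male germ cells. Fetal male germ cells first lose nearly all CpG methylation and then gain it again around birth, when most of the genome becomes methylated and CpG-rich promoters stay free of it. The comparison of heterozygous with wild-type pups asks whether pups that carry 1 mutant allele differ in methylation from pups that carry none, beside the difference between pups of the same genotype. The Tex15 gene itself could not be used to check the genotypes, because its promoter is not among the sequences used here and the files give no gene positions.

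The 4 samples held between 33019847 and 40876698 calls, with Tex15HT 18 the deepest, and the median tested tile held 7 CpGs and 20 to 24 calls per sample. A tile with 16 methylated calls of 20 (80%) has a 95% Wilson interval from 58.4 to 91.9%. Amplified reads that carry no molecular identifier can repeat the same molecule, so this and all other intervals cover counting error only. With 2 samples against 2, an exact permutation test over samples has 6 splits and cannot give a p below 0.333.

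Over all autosomal calls, the methylation level was 65.6% in Tex15WT 8, 64.6% in Tex15WT 9, 64.6% in Tex15HT 7 and 64.5% in Tex15HT 18. The group means were 65.1% ± 0.703 for Tex15WT and 64.6% ± 0.129 for Tex15HT (SD, n = 2 each), a difference of -0.58 points that was smaller than the spread of the wild-type pups (two-sided exact permutation p = 0.667). The direction depended on how calls were weighted. With each CpG counted once whatever its depth, the levels were 76.6% and 74.4% in Tex15WT and 77.3% and 76.5% in Tex15HT, a difference of 1.35 points the other way (exact permutation p = 0.667). Tex15WT 9 had the lowest value by this measure, and Tex15WT 8 lay between the heterozygous pups, so the groups overlapped by both measures. Over the 110182 CpGs with 5 or more calls in each sample, the levels were 40.1% and 41.3% in Tex15WT and 37.8% and 38.9% in Tex15HT, a difference of -2.38 points without overlap (exact permutation p = 0.333, the smallest possible). These CpGs are a small part of the 8557752 autosomal CpGs, and few very deep cytosines weigh heavily in a share of calls. Cytosines in the top 0.1% of coverage held 26.6 to 29.8% of the autosomal calls of each sample. Without them the autosomal difference was 1.27 points, with overlap of the groups.

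The tiles showed the pattern usual for such cells, with most of the genome methylated and CpG-rich sequence not. In tiles of 3 to 9 CpGs (428328 tiles) the share of methylated calls was 81.4% and 79.3% in the wild-type pups and 81.6% and 80.8% in the heterozygous pups. In tiles of 20 or more CpGs (21319 tiles) it was 15.9% and 16.2% against 15.6% and 15.7%. With each CpG counted once, the latter class was at 5.67% and 6.15% against 5.42% and 5.66%. By share of calls these 2 classes differed by 0.826 points up and 0.382 points down, and the exact permutation p was 0.667 and 0.333. Over the 55361 and 14291 CpGs of these classes with 5 or more calls in each sample the differences were -2.31 and -1.78 points. Tiles of 10 to 19 CpGs (113606 tiles) lay at 48.5% and 49.1% in Tex15WT and at 46.4% and 47.2% in Tex15HT, a difference of -2.0 points without overlap of the groups (exact permutation p = 0.333, the smallest possible). Without the cytosines in the top 0.1% of coverage the difference of this class was 0.568 points the other way, and for tiles of 3 to 9 CpGs it was -0.261 points without Tex15WT 9.

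By chromosome, the share of methylated calls was higher in Tex15HT on 16 of 19 autosomes, with a median difference of 1.2 points, and lower on chromosomes 2, 9 and 17. On chromosome 2 it was 47.1% and 48.0% in Tex15WT against 44.7% and 45.8% in Tex15HT, and on chromosome 9 it was 53.6% and 54.0% against 51.6% and 52.2%. Both chromosomes hold tiles with over 100000 calls per sample, described below. With each CpG counted once all 19 autosomes were higher in Tex15HT, by 0.984 to 1.53 points. None of the 19 exact permutation tests could have passed, since 2 samples against 2 cannot give a p below 0.333, and the adjusted p was 0.745 to 1. Without Tex15WT 9, 10 of 19 autosomes were higher in Tex15HT.

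Tile levels lay about as far apart between pups of 1 genotype as between pups of different genotypes. These distances include the counting error of tiles with a median of 20 to 24 calls, which was not separated from differences between pups. They therefore cannot show whether a smaller effect of genotype is present. With all calls, the mean absolute difference of tile level was 9.90 points between the 2 wild-type pups and 8.32 points between the 2 heterozygous pups. Between genotypes it was 8.56 points for Tex15WT 8 with Tex15HT 7, 8.42 for Tex15WT 8 with Tex15HT 18, 9.86 for Tex15WT 9 with Tex15HT 7 and 9.41 for Tex15WT 9 with Tex15HT 18. The 3 pairs with Tex15WT 9 were thus the 3 most distant, and Tex15WT 8 lay nearly as close to each heterozygous pup as these lay to each other. Thinning all samples to the depth of the shallowest left distances of 8.46 to 9.83 points, with the pairs of Tex15WT 9 again the 3 most distant. The order within those 3 pairs changed: with thinned calls, and in the 59165 tiles with 30 or more calls in each sample, Tex15WT 9 with Tex15HT 7 was the most distant pair. In the latter tiles the closest pair was Tex15WT 8 with Tex15HT 18, at 5.58 points, next to 5.61 for the heterozygous pups.

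**Figure D1:**
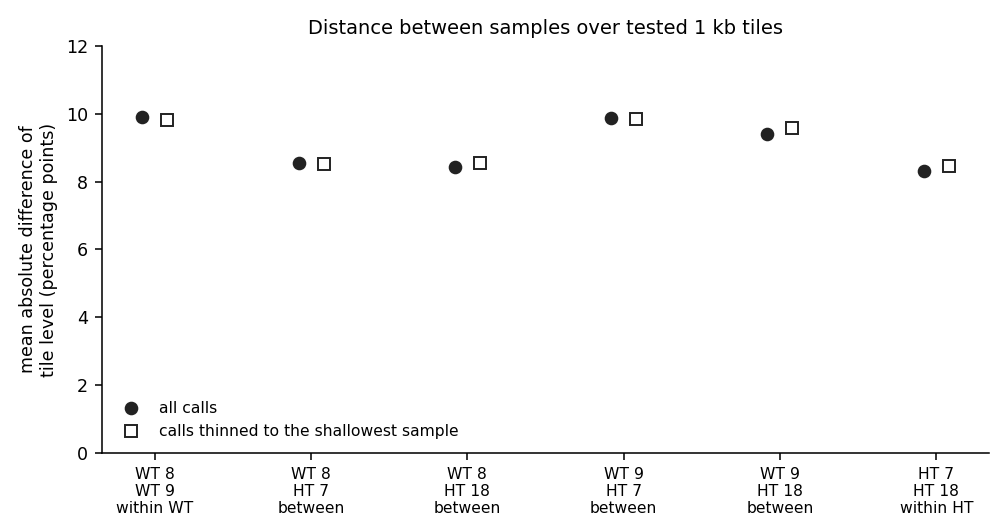
Mean absolute difference of methylation level (y axis, percentage points) over the tested 1 kb tiles for the 6 pairs of samples (x axis), with all calls (filled circles) and with calls thinned to the shallowest sample (open squares). The pair of wild-type pups is at 9.90 points and the pair of heterozygous pups at 8.32, and the pairs between genotypes lie from 8.42 to 9.86 with all calls. With thinned calls the 3 pairs of Tex15WT 9 are again above the others.

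Tex15WT 9 also had a smaller share of nearly fully methylated tiles. Tiles at 90% or more were 54.8% of all tested tiles in Tex15WT 8, 44.4% in Tex15WT 9, 58.7% in Tex15HT 7 and 53.6% in Tex15HT 18. Tiles from 50 to 90% were 41.1% of tiles in Tex15WT 9 and 26.9 to 32.2% in the other 3. The mean tile level was 79.3% and 77.2% in the wild-type pups and 80.0% and 79.2% in the heterozygous pups. The part of this library's lower level in the results below was not tested beyond the values given without it.

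No single tile passed the test between the groups. The quasi-likelihood test of edgeR on methylated and unmethylated counts, with Benjamini-Hochberg adjustment over all 563253 tiles, called 0 tiles (0%) at an adjusted p under 0.05. At an unadjusted p under 0.05 it gave 5157 tiles lower and 10441 tiles higher in Tex15HT, and limma on log ratios also called 0 tiles, with 7901 tiles lower and 19524 higher unadjusted. For each test the total is below the share of 0.05 of all tiles that such a p gives when no tile differs. These counts are therefore no evidence of tiles that differ. The lowest edgeR p was that of a tile on chromosome 3 (21732001 to 21733000), at 100% and 100% in Tex15WT on 17 and 19 calls and at 0% and 42.3% in Tex15HT on 20 and 26 calls. The heterozygous pups differ there by more than 40 points from each other, and the adjusted p was 0.977 in edgeR and 0.11 in limma.

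Levels of both heterozygous pups lay below those of both wild-type pups in 65017 tiles (11.5% of the tested tiles) and above them in 100867 tiles (17.9%). A gap of over 20 points between the groups was found in 1065 tiles that were lower in Tex15HT (0.189%) and in 1812 that were higher (0.322%). The lower tiles were at mean levels of 69.9% and 70.2% in the wild-type pups and 36.1% and 36.9% in the heterozygous pups. The higher tiles were at 55.3% and 54.4% against 87.3% and 86.5%. In both sets the heterozygous pups were within 1 point of each other and so were the wild-type pups, which the choice of tiles itself favours. Of the lower tiles 76.5% held 3 to 9 CpGs, as did 76.0% of all tested tiles and 86.5% of the higher ones.

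Among the 18977 tiles with 50 or more calls in each sample, the largest differences of tiles without overlap were chosen by size and are given as a description. The largest decrease was a tile of 22 CpGs on chromosome 8 (46148001 to 46149000), with its middle 5.96 kb upstream of the start of Mtnr1a, the gene of the melatonin receptor 1A. It lay at 44.8% and 52.2% in Tex15WT and at 8.77% and 12.4% in Tex15HT, on 57 to 89 calls per sample. The edgeR p was 0.00191 and the adjusted p was 1. A tile of 18 CpGs on chromosome 8 (93720001 to 93721000), 61.1 kb upstream of Aktip, the nearest gene whose promoter was placed, lay at 38% and 47.7% in Tex15WT and at 3.33% and 10.5% in Tex15HT. The other 3 of the 5 largest decreases lay on chromosomes 3, 7 and 4, nearest to the placed promoters of Ccnl1, Slc17a6 and Zbtb17, with differences of -32.7, -32.6 and -32.5 points. Each of these 5 tiles had an edgeR adjusted p of 1 and a limma adjusted p of 0.998.

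The 5 largest increases in such tiles were of 28.9 to 34.1 points. A tile of 22 CpGs on chromosome 3 (87608001 to 87609000), 35.6 kb upstream of Pear1, which encodes a platelet receptor, lay at 53.3% and 31.5% in Tex15WT and at 87.3% and 65.6% in Tex15HT. The pups of each genotype differ here by over 20 points. A tile of 21 CpGs on chromosome 2 (170112001 to 170113000) lay at 10.6% and 19.7% in Tex15WT against 46.7% and 41.4% in Tex15HT, and this was the increase, of the 5, with the smallest gap between the heterozygous pups. The other 3 increases lay on chromosomes 19, 10 and 3, and all 5 had an adjusted p of 1 in edgeR.

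Tiles that were lower in both heterozygous pups were most frequent, by window, in a stretch of chromosome 8 within the interval that holds Tex15. The autosomes were divided into windows of 5 Mb, a division chosen after the tile values were seen, and 498 windows held 100 or more tested tiles. In the window from 30 to 35 Mb of chromosome 8, 23 of 733 tiles (3.14%) were lower in both heterozygous pups by over 20 points, against 0.189% of all tiles and a median of 0.185% per window. This was the highest share of the 498 windows, and the next was 2.48% (3 of 121 tiles, at the start of chromosome 3). The highest share of higher tiles was also in a window of chromosome 8, from 100 to 105 Mb (7 of 233 tiles, 3.004%). Over the whole of chromosome 8, 0.273% of tiles were lower and 0.460% higher by over 20 points, both the highest of the 19 autosomes. In the window from 30 to 35 Mb, tiles higher by over 20 points were 4 of 733 (0.546%), which ranked 98. In the gene order of RefSeq (GRCm38.p6), Tex15 lies between Mrps31 and Mtnr1a, whose promoters were placed at 23521562 and 46154211 of chromosome 8 in mm9, so the window lies between the genes that flank the targeted gene among those placed. The position of Tex15 within that interval was not given in the sources used here.

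**Figure D2:**
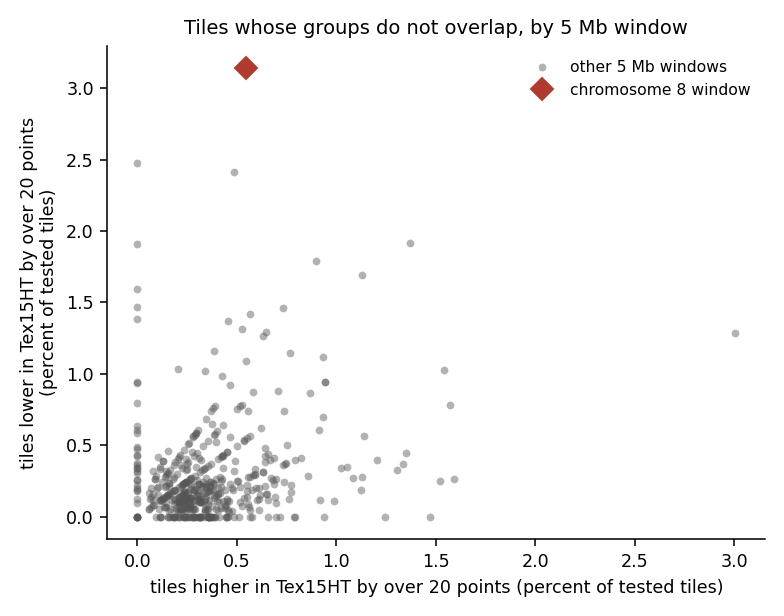
Share of tested tiles in which both heterozygous pups lay over 20 points above (x axis) or below (y axis) both wild-type pups, for the 498 windows of 5 Mb with 100 or more tested tiles. The chromosome 8 window (diamond) has 3.14% lower and 0.546% higher tiles and stands above the other windows on the y axis.

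Within that window the lower tiles were concentrated from 31 to 32 Mb, where 10 of 58 tested tiles (17.2%) were lower by over 20 points and 0 were higher. From 31 to 37 Mb, 31 of 1220 tiles (2.54%) were lower and 6 (0.492%) were higher. Each step of 1 Mb from 31 to 37 Mb had at least 1.32% lower tiles, while the 5 steps from 25 to 30 Mb held 0 to 0.34%. The limits of 31 and 37 Mb were chosen after these values were seen. The step from 30 to 31 Mb had 1.15% lower and 1.15% higher tiles. The steps from 37 to 47 Mb had 0 to 1.79% lower tiles, with the highest value from 1 of 56 tiles at 38 to 39 Mb. Summed over all tested tiles, the step from 31 to 32 Mb was at 77.6% and 75.4% in the wild-type pups and at 71.1% and 61.1% in the heterozygous pups. The window as a whole had mean tile levels of 80.7% and 79.4% against 78.1% and 76.4%.

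Most of the 23 tiles were highly methylated in the wild-type pups and at intermediate levels in the heterozygous pups. In 18 of 23 tiles both wild-type pups were at 75% or more (78.3%), against 40.2% of the 1042 lower tiles elsewhere, and 73.8% of all 733 tested tiles of the window were at such levels too. In 14 of 23 both heterozygous pups lay between 30 and 70% (60.9%), against 39.1% of the lower tiles elsewhere. The wild-type pups had mean levels of 86.0% and 87.2% in the 23 tiles, but of 69.5% and 69.8% in the lower tiles elsewhere. All these tiles were chosen for a gap of over 20 points, so their heterozygous levels depend on the wild-type level. The shares were not compared at equal wild-type levels, so they cannot show that intermediate levels are particular to this window. The best covered of the 23 tiles, with 15 CpGs (32211001 to 32212000), lay at 70.1% and 85.4% in Tex15WT and at 20.9% and 11.3% in Tex15HT, on 41 to 87 calls. The next (32318001 to 32319000) was at 100% and 100% against 70.7% and 71.8%, on 33 to 42 calls. A tile of 12 CpGs (33692001 to 33693000) was at 86.2% and 88.2% against 64.4% and 50%. A pair of adjoining tiles (31873001 to 31875000) was at 77.8% and 69.1% against 30.8% and 34.2%, and at 60% and 81.5% against 14.3% and 14.8%.

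The 23 tiles are thinly covered, with a median of 12 calls in the least covered sample, and each had an edgeR adjusted p of 1. With calls thinned to the shallowest sample the window held 17 lower of 653 tiles (2.60%), against 0.199% of all tiles, and ranked 4 of 498 windows. With 1 sample left out, the gap is asked of 3 samples only and more tiles meet it everywhere. Without Tex15WT 8 the window held 6.0% lower tiles, against 1.15% of all tiles, and ranked 6. Without Tex15WT 9 it held 4.64% against 0.937% and ranked 5. It held 8.19% against 1.49% without Tex15HT 7 and ranked 1. Leaving out Tex15HT 18 gave 6.28% against 1.65% and a rank of 12. Relative to all tiles, the window's share was smaller in each of these settings than with all 4 samples.

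Promoters were taken as the 250 bases before and the 50 after each RefSeq start site, and were found in the CpG table by matching the spacing of their CpGs. Of the placed windows, 8730 had 10 or more calls in each sample. Most were free of methylation: 8396 had a mean of the 4 samples under 10%, and 143 were at 50% or more. These 143 methylated promoters were at mean levels of 84.5% and 77.6% in Tex15WT and of 86.9% and 86.6% in Tex15HT, with Tex15WT 9 the low sample. Promoters with both heterozygous pups below both wild-type pups were 460 (5.27%), and those with both above were 426 (4.88%). The edgeR test called 0 of the promoters (0%), and its unadjusted p was under 0.05 for 6 that were lower and 3 that were higher. limma called 2 (0.0229%), and its unadjusted p was under 0.05 for 167 that were lower and 94 that were higher. Both totals of unadjusted p are below a share of 0.05 of the promoters. That of edgeR is far below it, so its 0 calls are weak evidence of no difference.

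The promoter with the most calls among the gene lists was that of Pou5f1, which encodes the pluripotency factor Oct4, whose reporter was used for sorting. Its window was placed on the plus strand at chr17:35642727-35643026 (mm9), and its RefSeq sequence (from the table of build GRCm38.p6) is shown with the 10 of 11 CpGs that had calls in capitals, beside that of Dazl, placed on the minus strand at chr17:50432896-50433195 with 16 of 28 CpGs in capitals. They are shown because these windows had the largest decreases of the listed promoters, and the capitals show which CpGs those values rest on.
Pou5f1: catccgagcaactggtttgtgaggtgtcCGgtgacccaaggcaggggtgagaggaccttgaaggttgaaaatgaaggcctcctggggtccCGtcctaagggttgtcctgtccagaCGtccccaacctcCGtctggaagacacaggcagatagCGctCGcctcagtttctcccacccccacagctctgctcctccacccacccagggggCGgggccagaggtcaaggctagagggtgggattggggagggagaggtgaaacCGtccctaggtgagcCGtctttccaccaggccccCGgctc
Dazl: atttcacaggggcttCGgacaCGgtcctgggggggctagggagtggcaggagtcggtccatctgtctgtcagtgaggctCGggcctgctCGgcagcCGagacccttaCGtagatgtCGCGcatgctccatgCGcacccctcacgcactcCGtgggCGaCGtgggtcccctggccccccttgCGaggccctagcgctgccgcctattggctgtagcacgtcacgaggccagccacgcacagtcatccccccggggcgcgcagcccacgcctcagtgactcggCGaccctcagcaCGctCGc

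The Pou5f1 window was methylated at 80.9% of 535 calls in Tex15WT 8 (95% Wilson interval 77.4 to 84.0%), 76.2% of 550 in Tex15WT 9 (72.4 to 79.6%), 51.6% of 698 in Tex15HT 7 (47.9 to 55.3%) and 51.5% of 814 in Tex15HT 18 (48.0 to 54.9%). Both heterozygous pups lay below both wild-type pups, by a mean of 27.0 points, and the pups of each genotype were within 5 points of each other. The edgeR p was 9.36e-04 and the adjusted p was 1, and limma gave an adjusted p of 0.9998. All 9 CpGs from base 91 of the printed sequence on were lower in the heterozygous pups, with mean differences from -17.4 points at base 295 to -30.6 points at base 209. The CpG at base 29 had 3 to 17 calls and was at 0% in 3 samples and at 29.4% in Tex15HT 18.

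**Figure D3:**
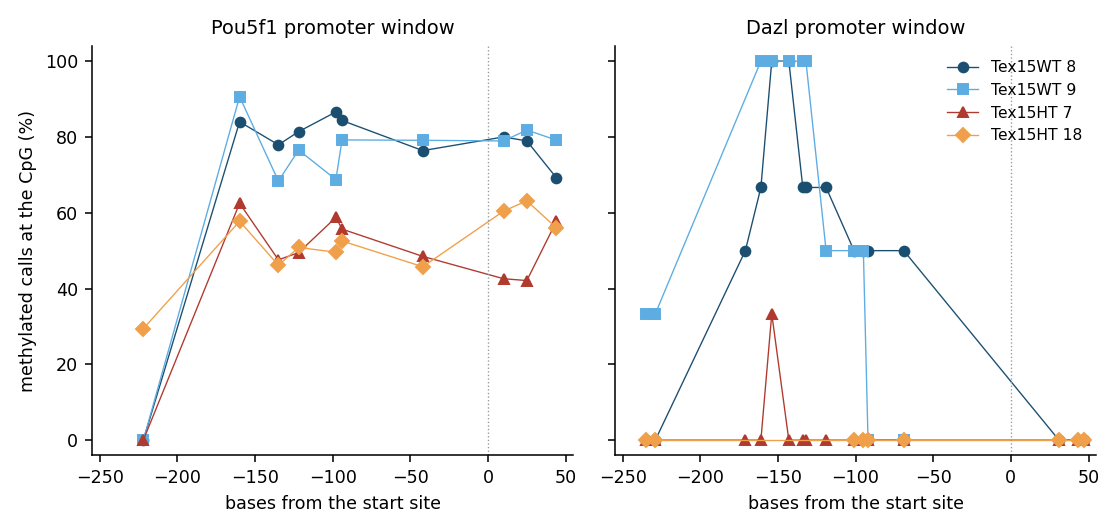
Share of methylated calls (y axis, percent) at each CpG with calls in the promoter windows of Pou5f1 (left) and Dazl (right), by distance from the start site in bases (x axis), with 1 line per sample. In the Pou5f1 window the lines of the heterozygous pups run below those of the wild-type pups at the 9 CpGs on the right, and in the Dazl window they lie at 0 except for 1 CpG of Tex15HT 7 at 33.3%.

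Nearby tiles differed less than the Pou5f1 promoter. The promoter lies in a stretch of 18 kb (chr17:35634001-35652000) in which each sample held 28.3 to 35.5 times the calls per CpG of its median tile, such as 90.7 calls per CpG in Tex15WT 8 against 2.88. The levels of the stretch were 86.8% and 85.7% in Tex15WT and 84.7% and 84.0% in Tex15HT. The tile that holds most of the promoter window (35642001 to 35643000) was at 79.2% and 75.2% in Tex15WT and at 51.0% and 50.2% in Tex15HT, on 504 to 773 calls. The next tile downstream, on 2298 to 3222 calls, was at 79.1% and 82.3% against 71.2% and 71.1%. The other 16 tiles of the stretch differed by -6.32 to 2.69 points, and without these 2 promoter tiles the stretch lay at 88.0% and 86.4% against 87.7% and 86.9%. The table gives 1 position for all copies of a sequence, so calls from the endogenous gene and from any further copies of this stretch cannot be told apart.

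**Figure D4:**
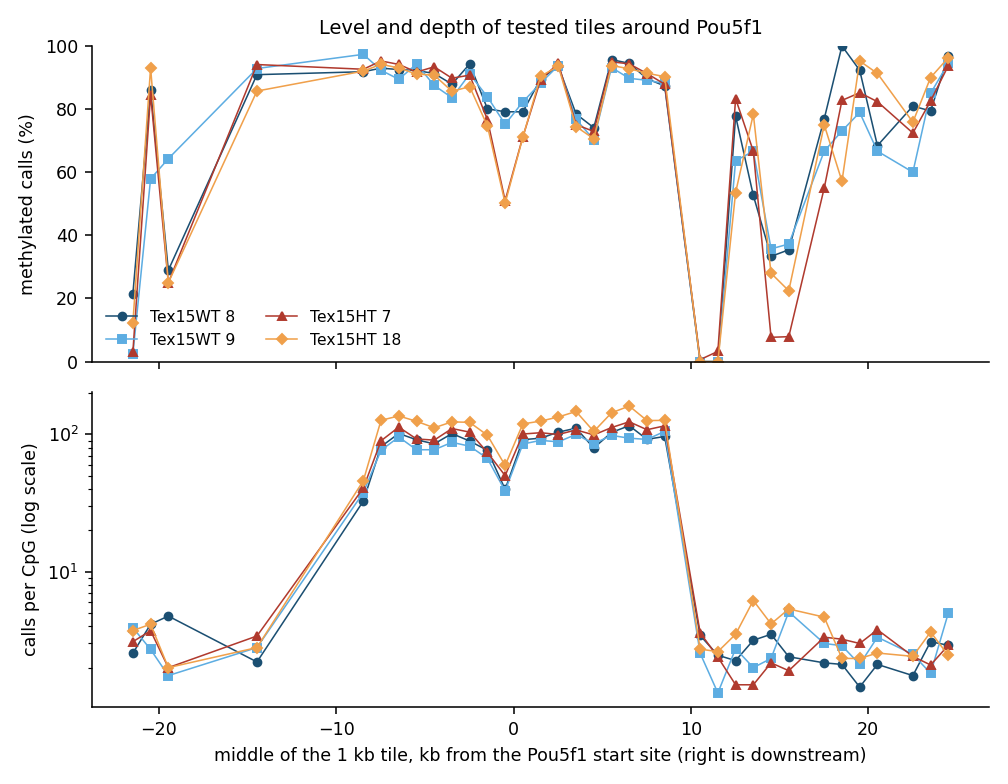
Share of methylated calls (top, percent) and calls per CpG (bottom, log scale) in the tested 1 kb tiles around Pou5f1, by the distance of the tile's middle from the start site in kb (x axis), with 1 line per sample. Depth is high over 18 kb in all 4 samples, and within that stretch the largest gap between the groups is in the tile just before the start site, at 51.0% and 50.2% against 79.2% and 75.2%. Thinly read tiles outside the stretch also differ in both directions.

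Dazl encodes an RNA-binding protein that germ cells need, and its promoter is methylated in somatic tissues. Its window was at 43.1% of 51 calls and 50% of 20 calls in Tex15WT and at 2.99% of 67 calls and 0% of 18 calls in Tex15HT, so the groups did not overlap, with a mean difference of -45.1 points. Tex15HT 18 had no call at 7 of the 16 CpGs, from base 80 to base 132, so its value rests on other CpGs than most methylated calls of the wild-type pups. Over the 6 CpGs read in all 4 samples the levels were 36.4% of 22 calls and 30.8% of 13 calls in Tex15WT, and 0% of 13 calls and 0% of 12 calls in Tex15HT, a difference of -33.6 points; this restriction was chosen after the values were seen. This was 1 of the 2 promoters that limma called (adjusted p = 0.0124), while edgeR gave an adjusted p of 1. The calls come from few reads: no CpG of the window had more than 4 calls in Tex15WT 8, 3 in Tex15WT 9, 6 in Tex15HT 7 or 5 in Tex15HT 18, and 1 read covers several neighbouring CpGs. The other promoter called by limma was that of the predicted gene Gm5532 on chromosome 1, at 56.3% and 38.5% in Tex15WT and at 100% and 90.3% in Tex15HT on 13 to 32 calls (adjusted p = 0.0225, and 1 in edgeR).

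Promoters of germline genes that somatic cells keep methylated were methylated in part of the calls, with large differences between pups. Of 17 genes in this list, 14 had a placed promoter and 13 had 10 or more calls in each sample. Over the placed members 11.7% and 14.7% of calls were methylated in Tex15WT, and 8.53% and 6.90% in Tex15HT. Without Dazl, left out after its values were seen, the shares were 9.08% and 13.6% against 9.27% and 7.07%, and the groups overlapped. Both heterozygous pups lay below both wild-type pups at 4 of the 13 promoters (Dazl, Ddx4, Tex101 and Stk31) and above them at 1. The shares were 5.27% and 4.88% of all promoters, but 96.2% of these had a mean level under 10%, and the median was 0% in each sample. No share was taken for promoters with levels like those of this list, so an excess cannot be read from these counts. In the 191 promoters at 10 to 50%, Tex15WT 9 had the highest mean (25.4%, against 15.8 to 19.5% in the others). Ddx4, which encodes the germ cell RNA helicase VASA, was at 29.2% and 22.2% in Tex15WT and at 0% and 9.21% in Tex15HT. Tex101, which encodes a surface protein of germ cells, was at 9.30% and 50% against 0% and 8.22%, with Tex15WT 9 far above the other 3. Stk31, a testis kinase gene, was at 18.7% and 12.5% against 7.46% and 1.72%.

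Brdt, which encodes a bromodomain protein of spermatocytes and spermatids, was the 1 member that lay higher in both heterozygous pups, at 0% and 1.72% in Tex15WT and at 11.1% and 16.7% in Tex15HT. The synaptonemal complex gene Sycp1 had its highest value in Tex15WT 9 (36.4%, against 7.50 to 13.2% elsewhere), as did the sperm carrier gene Slc25a31 (38.9%, against 1.82 to 14.3%). Syce1 and Hormad1 had theirs in Tex15HT 7, at 41.7% and 32.3%. The edgeR test called 0 of the 13 promoters, and limma called Dazl alone.

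Most promoters of the other lists were near 0% in both groups. In the list of piRNA and DNA methylation genes, 7 of 23 promoters were placed and they had 0.836% and 2.24% of calls methylated in Tex15WT and 0.965% and 2.96% in Tex15HT. Its highest values were those of Piwil1, a PIWI gene used later in meiosis, which was at 8.70% and 11.8% against 0% of 6 calls and 17.0%. Mov10l1, the piRNA helicase gene, which with Tdrd1 is also in the list above, was at 0%, 1.72%, 0% and 15.4%, with the last in Tex15HT 18. Both heterozygous pups lay below the wild-type pups at 1 of the 6 tested members and above them at 1, beside 5.27% and 4.88% of all promoters, and 0 passed either test in edgeR or limma.

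Imprinted promoters whose methylation is set in the egg, and which male germ cells are known to lack, were at 1.69% and 8.47% in Tex15WT and at 1.39% and 5.94% in Tex15HT over the 7 of 15 that were placed. Single samples stood out: Nnat was at 32.3% of 31 calls in Tex15WT 9 and Nap1l5 at 22.1% of 86 calls in Tex15HT 18, where the other heterozygous pup had 0% of 29. Mest and Grb10 were at 0% in all 4 samples, on 9 to 44 calls each. Of the paternally methylated group only Meg3 could be placed, and its promoter was at 0 to 14.3% on 13 to 22 calls.

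Among the genes of germ cell and spermatogonial identity, 7 of 24 were placed. Besides Pou5f1, the promoter of Stra8, the gene for entry into meiosis, was at 17.9% and 35.7% in Tex15WT and at 10.3% and 17.9% in Tex15HT, where Tex15WT 8 and Tex15HT 18 are all but equal. Kit, Etv5, Id4, Lin28a and Gfra1 were at 0 to 6.25% in every sample. Of the 10 Hox promoters placed out of 39, 0 had groups without overlap, a count near the 5.27% and 4.88% of all promoters for a list of this size, and their highest value was 12.5%, at Hoxa5 in Tex15WT 9. The 5 of 12 housekeeping promoters that were placed were at 0 to 8.70%. None of the 17 somatic testis markers had a placed promoter, so the share of somatic cells in the sorted samples was not measured.

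Copies of repeated sequence were followed without an annotation through runs of 6 successive CpGs whose 5 distances recur at 10 or more places. Runs may overlap, so 1 copy can belong to more than 1 spacing. There were 654 such spacings, and the edgeR test called 0 of them (0%). Its unadjusted p was under 0.05 for 10 that were lower and 3 that were higher, a total below a share of 0.05 of the spacings. Both heterozygous pups lay below both wild-type pups in 128 spacings (19.6%) and above them in 78 (11.9%), and the median difference was -0.03 points. Among the 79 spacings with a mean level of 50% or more, 21 were lower without overlap and 8 higher, with a median difference of -0.50 points.

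A set of 7 spacings is given by name because their copies are methylated in these cells. They were chosen with earlier results of these data known, so their count is no independent evidence of a direction. All 7 had lower means in Tex15HT than in Tex15WT, by 0.972 to 18.9 points, and 6 of the 7 had groups that did not overlap. The 7 are not independent. The spacing 7-7-5-4-29, read backwards, shares the distances 4-5-7-7 with 4-5-7-7-35. Likewise 4-13-7-3-37, read backwards, shares 3-7-13-4 with 3-7-13-4-21. Such pairs can cover the same copies and calls, which are then counted more than once. The share lower without overlap was 19.6% of all spacings and 26.6% of the 79 spacings with a mean level of 50% or more, which are nearer to these 7 in level. The spacing 4-11-5-6-5 (11 places) was at 79.0% and 77.2% in Tex15WT and at 68.8% and 49.7% in Tex15HT, so its difference of -18.9 points came with a spread of 13.5 points (SD) between the heterozygous pups. The spacing 4-5-7-7-35 (28 places) was at 89.7% and 90.2% against 84.8% and 79.3%, with an edgeR p of 0.0254 before adjustment. The most frequent of them, 2-6-2-4-13 (72 places), was at 89.4% and 90.04% against 88.3% and 89.2%. The one spacing with overlap, 3-7-13-4-21 (32 places), was at 81.4% and 86.3% against 81.7% and 79.4%. For all 7 the adjusted p was 0.998 in edgeR and 0.992 in limma.

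**Figure D5:**
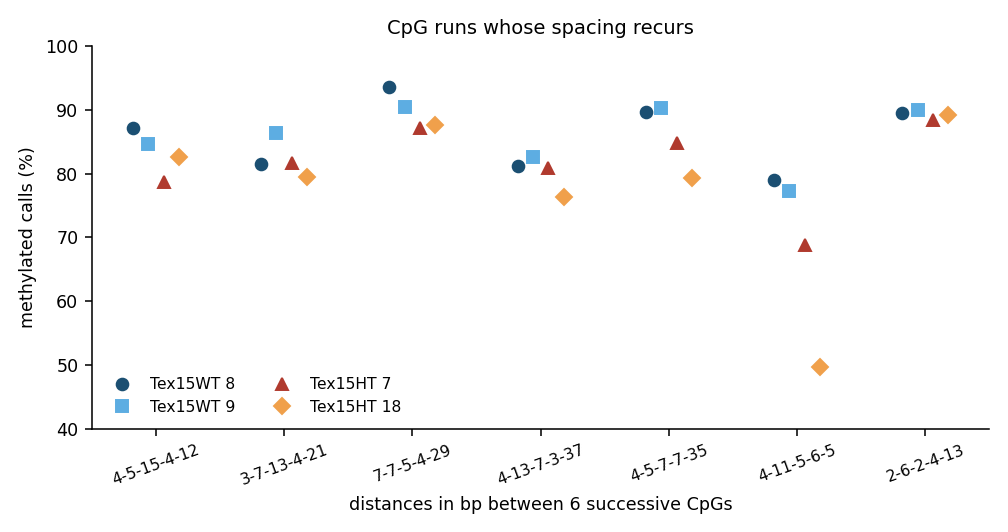
Share of methylated calls (y axis, percent, from 40 to 100) over all copies of the 7 named CpG spacings (x axis), with 1 symbol per sample. The heterozygous pups lie below the wild-type pups for 6 of the 7 spacings, and the spread between Tex15HT 7 and Tex15HT 18 is widest for 4-11-5-6-5, at 68.8% and 49.7%. Spacings that share distances can cover the same copies.

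Most single copies had groups that overlapped. Copies of spacings that share distances can be the same sequence, so the counts below are not independent. Among the 9616 copies of all spacings with 5 or more calls in each sample, 6.27% were lower and 4.47% higher in both heterozygous pups, and among the 2426 copies of spacings at 50% or more it was 11.7% and 8.53%. Of the 53 such copies of 2-6-2-4-13, 10 were lower and 4 were higher. For 3-7-13-4-21 the counts were 10 and 0 of 30 copies, for 4-5-7-7-35 they were 8 and 2 of 24, and for 7-7-5-4-29 they were 7 and 0 of 24. The other 3 spacings had 7 and 1 of 19 copies (4-13-7-3-37), 3 and 0 of 9 (4-5-15-4-12) and 3 and 1 of 8 (4-11-5-6-5). The number of copies under 50% differed between spacings. It was 0 in all 4 samples for 7-7-5-4-29 and 4-5-15-4-12, and 3, 1, 2 and 4 of 53 for 2-6-2-4-13, in the order Tex15WT 8, Tex15WT 9, Tex15HT 7 and Tex15HT 18. In the same order it was 5, 2, 3 and 3 of 30 for 3-7-13-4-21, and 2, 0, 2 and 3 of 8 for 4-11-5-6-5.

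The most deeply read tiles had slightly lower levels in the heterozygous pups. In the 103 tiles with 1000 or more calls in each sample, which held 37.4 to 40.8% of all calls in tested tiles, the median level was 35.3% and 37.2% in Tex15WT and 33.1% and 34.7% in Tex15HT. Of these tiles 53 were lower in both heterozygous pups (51.5%) and 3 were higher (2.91%), beside 11.5% and 17.9% of all tested tiles and 15.98% and 12.1% of those with 50 or more calls in each sample. In each of the 9 tiles with 100000 or more calls per sample both heterozygous pups were lower, with differences of group means from -2.01 to -3.13 points. The deepest, on chromosome 2 (98507001 to 98508000), was at 41.3% and 42.3% in Tex15WT and at 39.0% and 40.3% in Tex15HT on 4171926 to 5468491 calls, with an adjusted p of 1 in edgeR. With only tiles of 10 or more CpGs fitted, the edgeR adjusted p of this tile was 1.42e-114. It was also called with only tiles of 30 or more calls fitted. Its p thus depends on which tiles are fitted, and no conclusion is drawn from either value. Some of these tiles adjoin each other, such as those from 98505001 to 98508000 of chromosome 2, so they are not independent.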

How the data were processed

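The authors deposited 1 table of raw counts per CpG cytosine and strand, which per the file headers gives coverage, C calls and T calls for each sample. The build was mm9 and the tools named are BSMAP, Bismark and methylKit, per the submitters' processing notes. How duplicates were treated was not given in the sources used here. Coverage equalled C plus T at every cytosine, and each genotype's 2 samples summed to 3 or more calls at each. Of 10025464 cytosines, 9967694 were autosomal; strands were merged to 8557752 CpGs. A column was mapped to its sample for all 6 samples (0 unmapped).

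Counts of methylated and unmethylated calls were tested with edgeR 4.0.16 (R 4.3.3; common dispersion, glmQLFit, an intercept per sample, 4 samples in the fit), and limma 3.58.1, run on the log2 of methylated over unmethylated calls (1 added to each), was an alternative. The dispersion was thus shared over tiles. The quasi-likelihood spread of glmQLFit was fitted with its default trend over the abundance of calls, so it can change with depth. Adjustment was over all features of a fit. The tests were checked on simulated data. Promoters came from RefSeq sequences of GRCm38.p6, with 16477 autosomal windows of 7 or more CpGs. Of these, 10001 matched 1 place by 7 or more CpGs and by at least 2 more than any other place. For 9955 the shift between the builds also lay within 50000 bp of that of an adjoining placed promoter, and 9932 were distinct (8802 genes). Only CpG spacing was matched, so other bases of the printed sequences may differ from mm9. Named tiles were all called tiles (0), then the 5 largest decreases and increases with 50 or more calls and no overlap; named spacings and lists were chosen by name. The tile of lowest p, the chromosome 8 tiles, the deepest tiles, and Pou5f1's neighbourhood were named after their values were seen. The members and lists were chosen with earlier results of these data known.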

Additional observations from a re-analysis of the deposited data

How the results depend on the processing

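No paired analysis was made, because the replicate numbers (8 and 9 against 7 and 18) stand for single pups and the sample labels give no litter. The count of 0 called tiles was the same with limma, with a difference of 25 points, without the top 0.1% of coverage, with thinned calls and without any 1 sample. It was 2626 with Fisher's exact test on pooled counts, which takes no spread between pups (1237 lower, 1389 higher), 5 with 30 calls instead of 10, 3 with 10 CpGs, 3 with 5 kb tiles and, chosen after seeing the data, 15 with dispersion 0 (11 lower, 4 higher, the Pou5f1 promoter tile among them). The 5 and the 3 are deep tiles on chromosomes 2 and 9 with differences of -2.17 to -3.13 points. Promoters called were 2 with limma, and spacings called were 2 without Tex15WT 9 (0 to 2 over the samples left out). The autosomal difference (-0.58 points) was 1.35 per CpG and 1.27 without the top 0.1% of coverage, but -2.38 with 5 or more calls per CpG and -1.08 to -0.0836 with 1 sample left out. For tiles of 3 to 9 CpGs it was -2.31 with 5 or more calls per CpG, and -0.261 to 1.91 with 1 sample left out, below 0 only without Tex15WT 9. For tiles of 10 to 19 CpGs it was 0.819 per CpG and 0.568 without the top coverage. Autosomes higher in Tex15HT were 9 with 5 or more calls, and 10 to 17 with 1 sample left out. Tiles apart by over 20 points were 77 lower and 55 higher with 30 calls, and 5275 to 9288 lower and 5682 to 25850 higher with 1 sample left out, where 3 samples must meet the gap. Lower tiles then outnumbered higher ones without Tex15HT 7 (8382 to 5682) and without Tex15HT 18 (9288 to 7131), the reverse of all 4 samples. These settings were chosen after seeing the data. With 30 calls the chromosome 8 window held under 100 tiles and was not ranked. The cause of these moves was not tested. The median depth of 20 to 24 calls limits what single tiles can show.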

Other observations

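A stretch of 5 kb on chromosome 17 (24953001 to 24958000), between the placed promoters of Msrb1 and Hagh, was read far more often in Tex15HT 18 than in the other samples. It held 4464 calls over 19 CpGs in Tex15HT 18, against 64 in Tex15WT 8, 62 in Tex15WT 9 and 27 in Tex15HT 7. Its level was 2.28% in Tex15HT 18 and 95.3%, 74.2% and 70.4% in the others. In the 5 kb on each side, Tex15HT 18 had 80 calls at 87.5%, and the other samples had 42 to 58 calls at 81.0 to 90.5%. These 5 tiles were the only ones of the autosomes where Tex15HT 18 exceeded the depth-scaled calls of each other sample by over 8 times (5 calls added to the others), with 60 or more calls. Tex15WT 8 had 1 such tile, on chromosome 4, and Tex15WT 9 and Tex15HT 7 had 0. The 5 kb tiles there account for 2 of the 3 tiles called with that tile length.

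A group of 3 CpG-rich tiles on chromosome 4, chosen after its values were seen, lay lower in both heterozygous pups. The tile 146035001 to 146036000 (62 CpGs) was at 10.5% and 28.1% in Tex15WT and at 4.85% and 1.43% in Tex15HT, on 540 to 769 calls. The tile 147112001 to 147113000 was at 15.2% and 25.9% against 2.57% and 4.06%, and the tile 145230001 to 145231000 at 22.4% and 18.05% against 4.53% and 4.16%. Each had an edgeR adjusted p of 1, and among the edgeR fits each was called only with the dispersion set to 0 (adjusted p 3.49e-06, 0.0249 and 0.0369).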
